A study of Mus musculus with 45 samples.

Results

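Hearts of diet-induced obese mice exposed to mainstream cigarette smoke (DIO-MS, 6 arrays) were compared with hearts of diet-induced obese mice that breathed filtered air (DIO-SC, 8 arrays). The arrays were taken by their titles and make up 14 of the 45 arrays of the series. All mice were male C57BL/6. The obese mice received a diet with 60% of its calories as fat, begun at 6 weeks of age and given for 9 weeks before the exposures. Exposure was through the nose only and started at 15 weeks of age, for 5 hours a day and 8 exposures within 2 weeks, and the hearts were taken on the day after the last one. The same mainstream smoke was also given to regular weight mice on chow with about 5% of calories as fat (RW-MS, 8 arrays, against RW-SC in air, 8 arrays), and sidestream smoke was given to obese mice (DIO-SS, 8 arrays). The labels call the arrays of a group biological replicates, so the p-values measure the spread between mice. That spread was estimated for each gene from all 45 arrays, including regular weight mice in sidestream smoke (RW-SS, 7 arrays). It can differ from the spread within the compared groups. Body weights, the smoke concentration and the heart chambers taken were not given in the sources used here. One protocol text in the labels speaks of a lipopolysaccharide exposure, whereas the titles and treatments name smoke or air, and the groups follow the titles.

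Mainstream smoke is the smoke drawn through a cigarette, and it carries polycyclic aromatic hydrocarbons. These bind the aryl hydrocarbon receptor, which pairs with ARNT in the nucleus, binds short dioxin response elements and switches on detoxifying enzymes, above all Cyp1a1. Heat shock chaperones such as the HSP70 proteins refold or hold damaged proteins, and the heat shock factors induce them through repeated GAA units called heat shock elements. The heart draws most of its energy from fatty acids, and a diet rich in fat raises their supply.

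Expression is given as log2 values, so a difference of 1 between groups is a doubling, and a fold change is written beside the larger differences. In all 45 arrays together 9295 genes were tested, and a gene was called changed where the adjusted p of limma was under 0.05. Array medians over all 45 arrays lay between 6.20 and 6.24. Ventricular cardiomyocyte markers averaged 12.96 to 13.04 in DIO-MS and 12.98 to 13.07 in DIO-SC hearts, so both groups carried the labelled tissue. Atrial markers averaged 9.84 to 10.47 in DIO-MS and 9.45 to 10.80 in DIO-SC hearts, fat cell markers 7.09 to 8.71 in DIO-MS and 6.91 to 8.72 in DIO-SC hearts, and red cell markers 7.18 to 7.65 in DIO-MS and 7.13 to 7.44 in DIO-SC hearts. None of the 11 atrial, 14 fat cell or 6 red cell markers tested was called, against 4.55% of all genes tested. One air array, DIO-SC 2, stood apart: its T-cell recombinase Rag1 read 8.00, against at most 2.92 in DIO-MS and at most 3.03 in the other DIO-SC hearts, and it also read high for the thymic chemokine Ccl25 (7.46), Mki67 (6.86) and the keratin Krt8 (7.71). Without it 388 genes were called, and 340 of the 423 genes called with it were among them.

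Mainstream smoke changed 423 of the 9295 genes in the obese hearts (4.55%), and most of them rose: 340 were higher (3.66%) and 83 lower (0.893%) in DIO-MS. The differences were small. Their median size was 0.20 on the log2 scale, and only 3 of the rises and 5 of the falls reached 1.5-fold. The genes past that size were Cyp1a1, Cth and Ddit4l among the rises, and Hspa1b, Hspa1a, Ptgds, Hsph1 and Stbd1 among the falls. All 6 DIO-MS arrays lay on the same side of the DIO-SC mean for 400 of the 423 genes. For 130 of them the groups did not overlap at all, whereas 185 of all genes tested (1.99%) showed no overlap. The number of calls leaned on single mice: it was 221 without DIO-MS 5, 248 without DIO-MS 6 and 249 without DIO-SC 5. The number of lower genes ranged between 46 and 93 when any 1 DIO-MS or DIO-SC array was left out.

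The largest rise was in the aryl hydrocarbon receptor pathway. Cyp1a1, the monooxygenase that oxidises polycyclic hydrocarbons, read 5.86 at its lowest, 6.19 at the median and 6.55 at its highest in DIO-MS hearts, against 4.15, 4.30 and 4.82 in DIO-SC hearts. Every smoke-exposed heart was above every air heart. The difference was 1.82 ± 0.13 (SE; 3.52-fold; limma, adjusted p = 9.74e-14). The DIO-SC mean of 4.38 lay under 4.90, the mean below which genes were left out as dim, so the air level sat near the bottom of the array's scale. Ahr, the receptor itself, read 7.02, 7.19 and 7.25 (lowest, median, highest) in DIO-MS hearts and 6.33, 6.78 and 7.13 in DIO-SC hearts. The groups overlapped, but all 6 smoke-exposed hearts were above the air mean, and the difference was 0.43 ± 0.09 (limma, adjusted p = 0.00322). A second, dimmer Ahr probe set differed by 0.06 and did not pass.

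Of the 7 tested genes in the list of receptor and targets, 2 were called higher, against 3.66% of all genes, and none lower. All 7 differences were above 0, with a median of 0.19 against 0.011 for all genes. The other members did not pass. Nqo1, a quinone reductase also under NRF2, differed by 0.19 (adjusted p = 0.157), Cyp1b1 by 0.28 (0.35), the receptor repressor Ahrr by 0.16 (0.564) and the ADP-ribosyltransferase Tiparp by 0.11 (0.364), and the partner Arnt by 0.02. The promoter window of Cyp1a1 is shown because it was the most changed gene. It is RefSeq sequence of GRCm38.p6 at chr9:57697363-57697662 on the plus strand, covering 250 bases before to 50 after the transcription start, with the only dioxin response element core (GCGTG, searched on both strands) in capitals, 54 to 50 bases before the start.
Cyp1a1: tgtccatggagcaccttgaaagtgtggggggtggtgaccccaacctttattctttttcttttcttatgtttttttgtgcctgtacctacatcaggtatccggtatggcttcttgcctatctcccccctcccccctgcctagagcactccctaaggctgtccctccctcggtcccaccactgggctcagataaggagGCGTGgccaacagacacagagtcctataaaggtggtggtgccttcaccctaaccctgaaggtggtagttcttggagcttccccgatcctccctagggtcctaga
That core occurs in 32.4% of the 32851 promoter windows in the same table. Sequence outside the window was not searched.

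**Figure D1:**
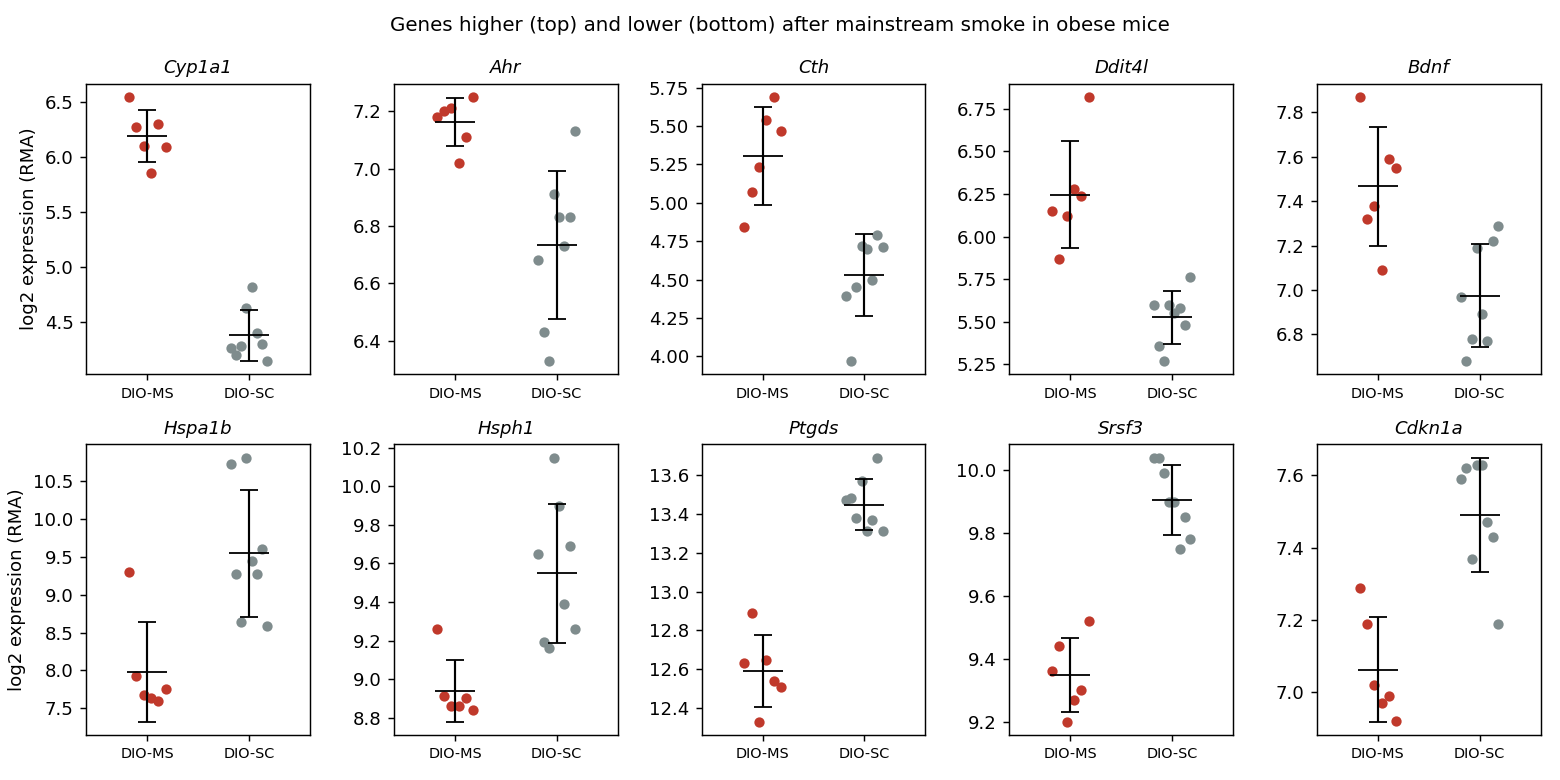
Log2 expression (RMA) of 10 genes in each DIO-MS and DIO-SC heart, with the mean and SD as black bars; vertical scales differ between panels and do not start at 0. Cyp1a1, Cth, Ddit4l, Ptgds and Srsf3 show no overlap between the groups, and DIO-MS 1 is the high smoke-exposed heart in the Hspa1b and Hsph1 panels.

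The largest falls were in heat shock chaperones. Hspa1b, an inducible HSP70, read 7.59 at its lowest, 7.71 at the median and 9.30 at its highest in DIO-MS hearts, against 8.59, 9.36 and 10.81 in DIO-SC hearts. Only DIO-MS 1, at 9.30, reached into the range of the air hearts. The difference was -1.57 ± 0.26 (SE; 2.96-fold lower; limma, adjusted p = 0.000476; 0.0282 when only the compared groups were fitted). Its 3 probe sets gave -1.54, -1.57 and -1.58. Without DIO-MS 1 the difference was -1.83. Hspa1a, the neighbouring HSP70 gene, read 6.26, 6.42 and 7.85 in DIO-MS and 7.05, 7.76 and 9.37 in DIO-SC hearts, with DIO-MS 1 again the one smoke-exposed heart inside the air range. Its difference was -1.30 ± 0.24 (2.46-fold lower; limma, adjusted p = 0.000929; 0.0611 when only the compared groups were fitted). These 2 genes are near-identical copies, so their probes may share signal and their separate values are uncertain.

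Hsph1, an HSP110 that recharges HSP70, read 8.84, 8.88 and 9.26 in DIO-MS and 9.16, 9.52 and 10.15 in DIO-SC hearts, and fell by 0.61 (limma, adjusted p = 0.00663). Dnaja1, an HSP40 cochaperone, read 9.79, 9.96 and 10.25 in DIO-MS hearts, against 10.16, 10.41 and 10.81 in DIO-SC hearts, and fell by 0.48 (limma, adjusted p = 0.00288). In both genes 1 or more smoke-exposed hearts overlapped the lowest air hearts. The HSP90 activator Ahsa1 fell by 0.18, and the mitochondrial chaperonin pair Hspd1 and Hspe1, named after their values were seen, fell by 0.13 and 0.14. These 3 small falls were the less stable ones: Ahsa1 held in 19, Hspd1 in 14 and Hspe1 in 8 of 23 settings of the processing. The settings included leaving out each DIO-MS and DIO-SC array in turn.

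In all, 7 of the 22 heat shock genes tested were lower and none was higher, against 0.893% of all genes lower. Of the 22 differences, 20 were below 0, with a median of -0.12 against 0.011 for all genes. Dnajb1 (-0.39, adjusted p = 0.0782) and the inducible HSP90 Hsp90aa1 (-0.37, adjusted p = 0.0521) missed the threshold. Some other members that were not called differed less, with -0.08 for Hspa8, -0.08 for Cryab and -0.04 for Bag3. Hspa1b averaged 7.98 ± 0.66 in DIO-MS hearts (SD, n = 6) and 9.54 ± 0.83 in DIO-SC hearts (n = 8), and regular weight hearts in air averaged 7.28 ± 0.13 (n = 8), so the smoke-exposed obese hearts lay between the 2 air groups.

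Because the chaperone genes moved together, their promoters were searched on both strands for the heat shock element, here 3 alternating GAA and TTC units with 2 free bases between neighbours. It was found in 3 of the 7 lower genes (Hsph1, Hspd1, Hspe1) and in 1 of the 11 other members with a window (Chordc1). The windows of the remaining lower genes, Hspa1b, Hspa1a, Dnaja1 and Ahsa1, held no match. In the table as a whole 198 of 32851 windows held the element (0.603%). That share is per window, whereas a gene was counted where any of its windows matched, and Hsph1 has 2 windows. Below are 2 examples from RefSeq (GRCm38.p6) with the element in capitals, Hsph1 at chr5:149636287-149636586 on the minus strand, where it lies 36 to 48 bases after the start, and Hspe1 at chr1:55087898-55088197 on the plus strand, where 2 overlapping elements lie 89 to 72 bases before it.
Hsph1: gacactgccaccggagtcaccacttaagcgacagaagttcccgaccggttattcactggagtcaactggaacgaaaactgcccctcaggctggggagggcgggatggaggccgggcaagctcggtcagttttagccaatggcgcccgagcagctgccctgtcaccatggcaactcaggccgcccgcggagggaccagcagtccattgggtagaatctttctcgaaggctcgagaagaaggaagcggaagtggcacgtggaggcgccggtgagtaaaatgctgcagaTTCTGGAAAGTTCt
Hspe1: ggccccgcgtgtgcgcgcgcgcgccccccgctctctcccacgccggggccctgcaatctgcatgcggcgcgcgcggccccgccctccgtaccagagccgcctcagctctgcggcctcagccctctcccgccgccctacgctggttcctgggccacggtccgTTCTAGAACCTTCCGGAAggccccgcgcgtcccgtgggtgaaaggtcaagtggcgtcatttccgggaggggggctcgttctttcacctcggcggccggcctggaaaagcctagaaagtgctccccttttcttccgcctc
A match describes the letters in this window only.

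**Figure D2:**
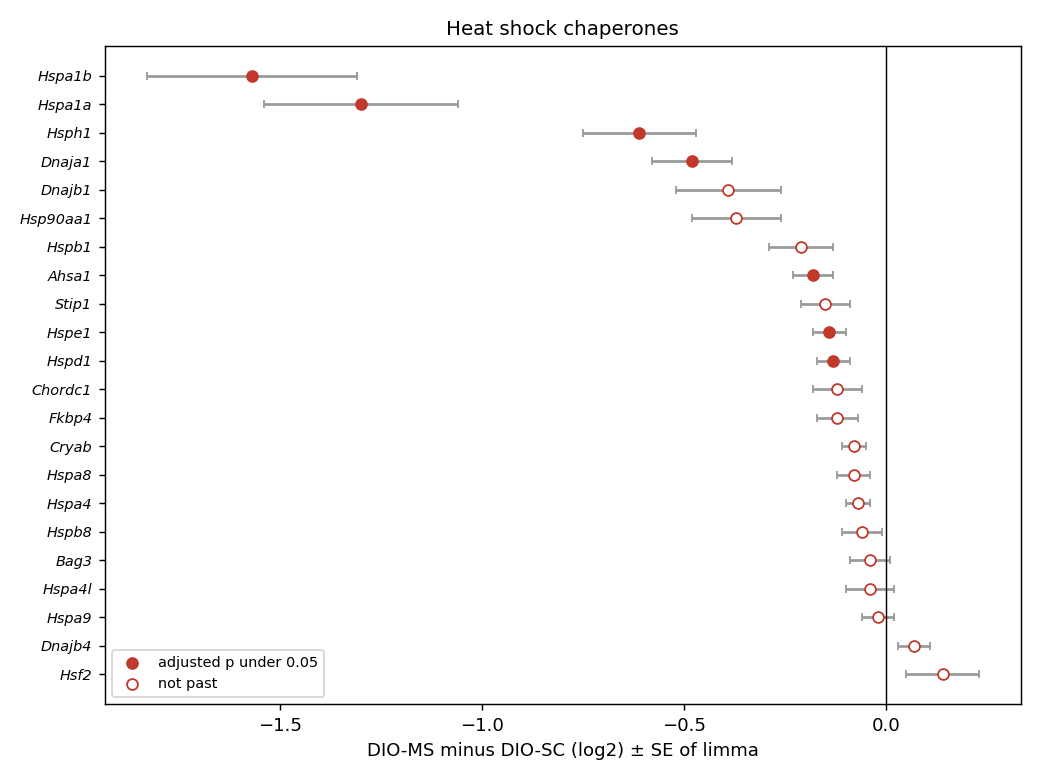
Difference of DIO-MS minus DIO-SC (log2, points; bars are the SE of limma) for the 22 heat shock genes tested, filled where the adjusted p is under 0.05. All but Dnajb4 and Hsf2 lie below 0, and Hspa1b at -1.57 and Hspa1a at -1.30 stand far to the left.

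Among the other rises, Cth and Ddit4l were the largest. Cth, the cystathionine gamma-lyase that makes cysteine and hydrogen sulfide, read 4.84, 5.35 and 5.69 (lowest, median, highest) in DIO-MS hearts and 3.97, 4.60 and 4.79 in DIO-SC hearts. The groups did not overlap, and the rise was 0.78 ± 0.11 (1.71-fold; limma, adjusted p = 3.9e-05; 0.0115 when only the compared groups were fitted). Every DIO-SC value lay under the 4.90 below which genes were left out as dim, so the air level sat near the bottom of the scale here too. Cth was the only gene called among 16 in the list of ATF4 targets and amino acid synthesis, against 4.55% of all genes. In that list Asns differed by -0.15 (adjusted p = 0.686) and Psat1 by -0.41 (0.344). Ddit4l, a relative of REDD1 that restrains mTOR signalling, read 5.87, 6.20 and 6.82 in DIO-MS and 5.27, 5.57 and 5.76 in DIO-SC hearts, again without overlap, and rose by 0.72 ± 0.16 (1.65-fold; limma, adjusted p = 0.00496).

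The other large rises lay between 0.36 and 0.49. The neurotrophin gene Bdnf read 7.09, 7.47 and 7.87 in DIO-MS hearts and 6.68, 6.93 and 7.29 in DIO-SC hearts, and its rise of 0.49 (limma, adjusted p = 0.00821) was 0.69 in a second probe set. Pde7a, a cyclic AMP phosphodiesterase, read 7.07, 7.30 and 7.36 in DIO-MS hearts and 6.55, 6.82 and 6.96 in DIO-SC hearts, without overlap, and rose by 0.48 (limma, adjusted p = 0.000499). Crebrf, a regulator of CREB3 factors, rose by 0.40 (adjusted p = 0.000476), as did Dact1, a modulator of Wnt signalling (adjusted p = 0.00145). Asb15, a muscle ankyrin repeat and SOCS box protein, rose by 0.41 (adjusted p = 0.00398). These 5 held in every one of the settings tried. The transcription factor gene Ebf2 and the corepressor gene Runx1t1 rose by 0.36 and 0.38, but neither passed when all probe sets of the gene were averaged. Ift74 (0.40, adjusted p = 0.0291) held in 17 of 22 settings. Rrad, which restrains calcium channels (0.40, adjusted p = 0.0488), Alox12 (0.42, 0.0478) and Rassf9 (0.38, 0.0459) held in 5, 7 and 5 settings and are weak calls.

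The other falls were led by Ptgds, the lipocalin-type prostaglandin D synthase. It read 12.33, 12.59 and 12.89 in DIO-MS hearts, against 13.31, 13.43 and 13.69 in DIO-SC hearts. No smoke-exposed heart came within the air range, and the difference was -0.86 ± 0.11 (1.81-fold lower; limma, adjusted p = 1.8e-06), with -1.10 in a second probe set. Srsf3, a splicing factor of the SR family, read 9.20, 9.33 and 9.52 in DIO-MS and 9.75, 9.90 and 10.04 in DIO-SC hearts, and fell by 0.56 (limma, adjusted p = 0.000153) without overlap. A sixth and dimmest Srsf3 probe set differed by -0.10, whereas the others fell by 0.44 to 0.67. Stbd1, which binds glycogen, read 6.54, 6.74 and 6.95 in DIO-MS hearts and 6.92, 7.34 and 7.81 in DIO-SC hearts, with slight overlap, and fell by 0.59 (adjusted p = 0.00256).

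Kcna5, which encodes a repolarising potassium channel, read 6.90, 7.11 and 7.48 in DIO-MS and 7.25, 7.59 and 8.18 in DIO-SC hearts. It fell by 0.56 (limma, adjusted p = 0.0135; 0.0513 when only the compared groups were fitted). None of the other 13 potassium channel genes was called, against 4.55% of all genes. The retinol binding protein Rbp7 fell by 0.51 and the matricellular protein Thbs4 by 0.37, both without overlap between the groups. Tubb2a, a beta-tubulin, fell by 0.51 (adjusted p = 0.0015), although a second, dim probe set differed by 0.01. Dct, known as a melanin synthesis enzyme, fell by 0.45 (adjusted p = 0.00288), and Klhdc8a by 0.39 (adjusted p = 0.01).

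Growth arrest genes moved in both directions, and the immediate early genes that were called were lower. Cdkn1a, the p21 inhibitor of cyclin-dependent kinases, read 6.92, 7.0 and 7.29 in DIO-MS hearts and 7.19, 7.53 and 7.63 in DIO-SC hearts, and fell by 0.43 (limma, adjusted p = 0.00168). Gadd45g fell by 0.37 (adjusted p = 0.0148; 0.0567 without DIO-MS 2), whereas Gadd45a rose by 0.30 (adjusted p = 0.0302; 17 of 23 settings) and Sesn1, a stress-induced inhibitor of mTOR signalling, by 0.26 (adjusted p = 0.00171). The p53 and growth arrest list thus held 2 higher and 2 lower genes among 18, against 3.66% higher and 0.893% lower among all genes. Of 23 immediate early genes, Klf4 fell by 0.35 and Jund by 0.28, against 0.893% of all genes lower, and none rose. In that list 20 differences were below 0, with a median of -0.10 against 0.011 for all genes. Fos differed by -0.20 (adjusted p = 0.705), Egr1 by -0.24 (0.431) and Atf3 by -0.23 (0.143), none past the threshold.

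Of 15 clock genes, against 3.66% of all genes higher, the nuclear receptors Rora (0.25, adjusted p = 0.00773) and Nr1d2 (0.21, adjusted p = 0.00949) were higher and none was lower, though Nr1d2 missed the threshold when its probe sets were averaged, when only the compared groups were fitted, and without DIO-MS 6. Clock differed by -0.02, Arntl by -0.20 and Dbp by 0.04. Bhlhe40 (-0.23, adjusted p = 0.0554) and Nr1d1 (-0.25, 0.074) did not pass. Of the 15 differences, 9 were above 0 and 6 below. The glucocorticoid list had 3 higher and 2 lower genes of 27, against 4.55% of all genes called. Glul, glutamine synthetase, rose by 0.26 (adjusted p = 0.00401) and the transcription factor Foxo3 by 0.25 (0.011), and the kinase gene Map3k6 fell by 0.32 (0.0318; 14 of 22 settings), while Fkbp5 (-0.30, 0.283) and Tsc22d3 (-0.06, 0.767) did not pass.

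Changes in metabolic genes were small. The carnitine-acylcarnitine carrier Slc25a20 read 11.46, 11.54 and 11.63 in DIO-MS hearts and 11.22, 11.31 and 11.46 in DIO-SC hearts, and rose by 0.20 (limma, adjusted p = 0.00344). Acat1, a mitochondrial thiolase, rose by 0.15 (adjusted p = 0.0139; 0.0528 after a further quantile normalization). These were the 2 called genes among 30 of fatty acid oxidation, against 3.66% of all genes higher, and none was lower. In cholesterol synthesis Fdft1, squalene synthase, read 9.11, 9.19 and 9.50 in DIO-MS hearts and 8.79, 8.93 and 9.07 in DIO-SC hearts without overlap, and rose by 0.34 (adjusted p = 0.00146). Cyp51, lanosterol demethylase, rose by 0.29 (adjusted p = 0.0469; 8 of 22 settings). Of the 15 genes in that list 2 were called higher, against 3.66% of all genes. Of the 15 differences, 14 were above 0, with a median of 0.07 against 0.011 for all genes.

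The pyruvate dehydrogenase subunits Pdha1 and Pdhb rose by 0.09 and 0.10 with no overlap between the groups, but held in 8 and 12 of 23 settings. The glucose transporter gene Slc2a1 rose by 0.25 (adjusted p = 0.0318; 13 of 23 settings), and Nampt, which makes a precursor of NAD, by 0.30 (adjusted p = 0.0137; 0.0912 at the most, and past the threshold in 21 of 23 settings). The oxygen-regulated factor Hif1a was called in its brightest probe set (0.21, adjusted p = 0.00957), whereas its other probe sets differed by -0.08 to 0.02. Plin5, a lipid droplet coat protein, fell by 0.24 (adjusted p = 0.042; 12 of 23 settings). The fuel switch genes Pdk4 (-0.24, adjusted p = 0.568), Acot1 (-0.11, 0.717), Angptl4 (0.15, 0.847) and Ucp3 (0.01, 0.98) did not pass.

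In protein handling outside the heat shock genes, Atf6, a sensor of the endoplasmic reticulum stress response, read 9.30, 9.37 and 9.45 in DIO-MS and 9.02, 9.22 and 9.26 in DIO-SC hearts, and rose by 0.19 (limma, adjusted p = 0.0106). Herpud1, which serves the degradation of misfolded proteins, rose by 0.26 (adjusted p = 0.0352; 15 of 23 settings), and the chaperone Hspa5 fell by 0.19 (adjusted p = 0.0492; 9 of 23 settings). The other 23 genes of that list of 26 were not called, while 4.55% of all genes were called. The autophagy kinase Ulk1 rose by 0.20 (adjusted p = 0.0176; 0.0548 without DIO-MS 3) and Atg12 by 0.17 (12 of 23 settings). With Foxo3 they were the 3 higher genes among 24 of the FoxO and autophagy list, against 3.66% of all genes, and none was lower. Of 28 proteasome genes, Psme4 and Psmb4 were called higher by 0.19 and 0.09, against 3.66% of all genes higher. Among 26 ribosomal protein genes 25 differences were below 0, but the median was -0.04, against 0.011 for all genes. Only Rpl19 was called (-0.12, 10 of 23 settings), against 4.55% of all genes.

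Of 24 NRF2 targets, the antioxidant and detoxifying genes, 1 was called, close to the 4.55% of all genes. That gene, Blvrb (biliverdin reductase B), read 8.03, 8.09 and 8.15 in DIO-MS and 7.79, 7.89 and 7.98 in DIO-SC hearts, without overlap, and rose by 0.19 (limma, adjusted p = 0.0131). Gclm (0.14, adjusted p = 0.422), Hmox1 (-0.10, 0.709), Gclc (-0.01, 0.931), Txnrd1 (0.05, 0.748) and Srxn1 (0.01, 0.972) did not pass, nor did the metallothioneins Mt1 (0.00, 0.995) and Mt2 (0.07, 0.852). Of 22 iron and heme genes, only the iron regulatory protein gene Ireb2 was called (0.14, adjusted p = 0.0351; 14 of 23 settings), close to the 4.55% of all genes.

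No list of structural or immune genes held more than isolated calls. None of 38 extracellular matrix genes, 21 inflammatory genes or 22 interferon genes was called, against 4.55% of all genes. The matrix genes leaned downward, with 26 differences below 0 and a median of -0.11, against 0.011 for all genes. Col1a1 differed by -0.17 (adjusted p = 0.501). The stretch and hypertrophy genes Nppa (0.09, adjusted p = 0.943), Nppb (-0.30, 0.374) and Myh7 (-0.32, 0.424) did not pass. Of 21 genes in that list 2 were called, against 4.55% of all genes, Fhl1 higher (0.20, 12 of 23 settings) and Gadd45g lower. Of 19 efflux transporter genes tested, 3 were called higher, against 3.66% of all genes. They were Abcb1a (0.26), Abca7 (0.19) and Abcb4 (0.19), which held in 11, 14 and 7 settings. In the eicosanoid list Ephx2, soluble epoxide hydrolase, rose by 0.18 (adjusted p = 0.0216; 0.0747 without DIO-MS 5).

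Among the cell type marker lists the endothelial sialomucin Emcn read 8.58, 8.65 and 8.71 in DIO-MS and 8.13, 8.40 and 8.47 in DIO-SC hearts, without overlap, and rose by 0.29 (limma, adjusted p = 0.00594). In whole heart RNA a change in the number of cells of a type and a change in RNA per cell cannot be told apart. The 14 endothelial markers averaged 8.60 to 8.77 in DIO-MS and 8.61 to 8.72 in DIO-SC hearts, and Pecam1 (0.08, adjusted p = 0.614) did not pass. The VEGF receptor gene Flt1 was called (0.16, adjusted p = 0.0129), but its probe sets disagreed, with -0.22 and -0.12 in the other two. The nerve marker Mal (0.28, adjusted p = 0.0408; 9 of 23 settings) was the only other marker called.

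**Figure D3:**
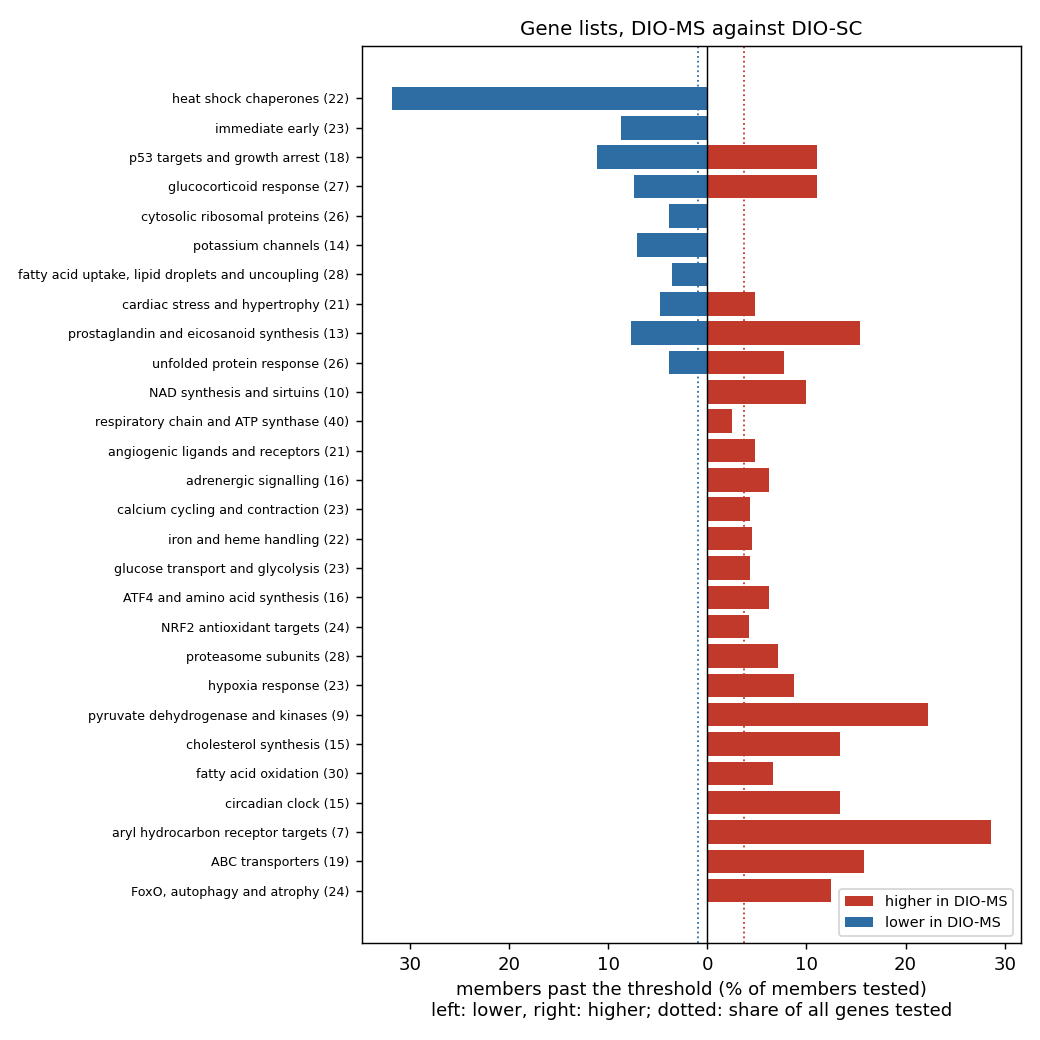
Share of each list's tested genes called higher (right) or lower (left) in DIO-MS against DIO-SC, in percent, for pathway lists with at least 1 call; the number tested is in brackets, and dotted lines mark 3.66% higher and 0.893% lower among all genes. The bar of the heat shock chaperones, 7 of 22 genes, is the longest on the lower side.

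The title of the series speaks of an impaired response to smoke with obesity. The same smoke was given to regular weight mice, and that comparison shares no array with the obese one. There, 638 genes were called in RW-MS against RW-SC (6.86%), 266 higher (2.86%) and 372 lower (4.00%), so falls outnumbered rises. Some RW-MS arrays stood apart. Atrial markers averaged 6.96, 7.41 and 7.47 in RW-MS 2, 6 and 8, against 9.83 to 10.42 in the other RW-MS hearts, and 4 of 11 were called lower in RW-MS. RW-MS 7 had thymus markers at 7.13, against 4.49 to 4.62 in the other RW-MS hearts, and a mean correlation of 0.9825 with its group, the lowest of all 45 arrays. Their part in the results was not tested, beyond the values without them.

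The 2 sets shared 112 genes with the same direction (80 higher, 32 lower) and none with opposite directions, which is 26.5% of the DIO calls and 17.6% of the RW calls. Of the genes higher in DIO-MS, 84.4% were also above 0 in regular weight mice, against 51.0% of all genes, and of those lower 89.2% were also below 0, against 49.0%. Across the 9295 genes, which are not independent of one another, the 2 effects had a Pearson r of 0.26. Without RW-MS 7, 739 genes were called in RW-MS against RW-SC (366 higher, 373 lower) and, since all arrays share 1 estimate of the spread, 571 in DIO-MS against DIO-SC, and 181 were shared with the same direction and 2 with opposite directions. Without RW-MS 2, 6 and 8, 380 genes were called in RW-MS (160 higher, 220 lower) and 433 in DIO-MS, and 81 were shared with the same direction and 1 with opposite directions. Shared falls included Srsf3 (-0.56 in DIO, -0.50 in RW), Ptgds (-0.86 in DIO, -0.52 in RW) and Dct (-0.45 in DIO, -0.62 in RW). Shared rises included Fdft1 (0.34 in DIO, 0.30 in RW), Glul (0.26 in DIO, 0.46 in RW) and Nampt (0.30 in DIO, 0.53 in RW). These 6 were also called in regular weight mice without either set of arrays. The DIO-higher genes had a median of 0.20 in obese and 0.07 in regular weight hearts, while the RW-lower genes had -0.06 in obese and -0.21 in regular weight hearts. Such gaps are partly fixed by choosing genes on one diet's calls, so they are descriptions only.

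**Figure D4:**
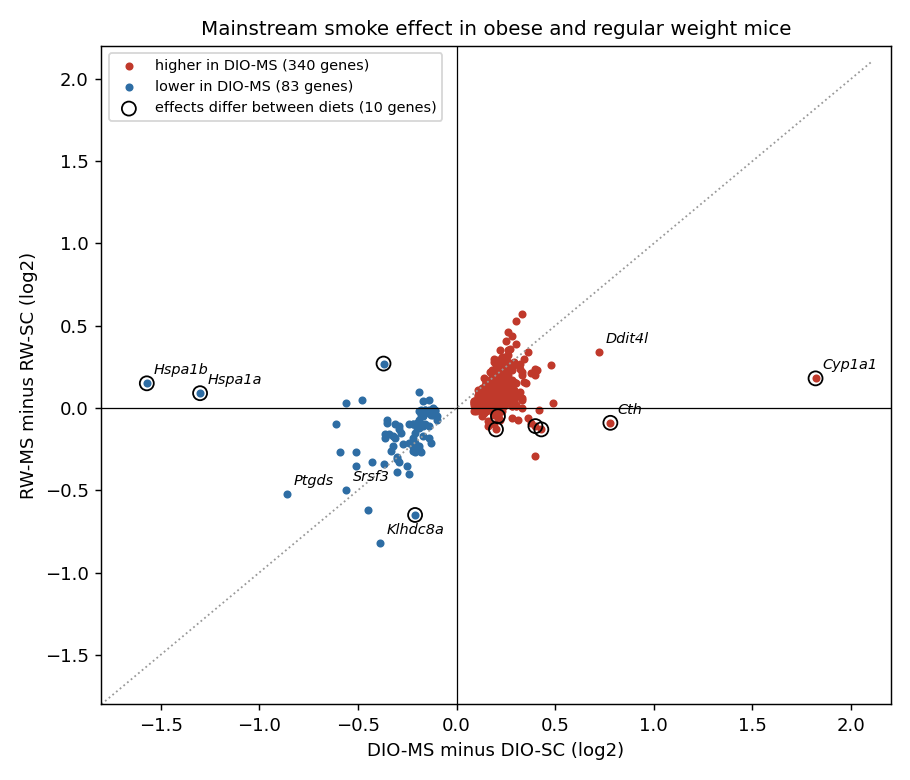
Effect of mainstream smoke (log2) on the 423 genes called in obese mice, in obese (horizontal) and regular weight mice (vertical); rings mark the 10 genes whose effect differed between diets, and the dotted line marks equal effects. Most points lie in the quadrants of equal sign, whereas Cyp1a1, Cth, Hspa1a and Hspa1b lie near 0 on the vertical axis.

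A direct test asked whether mainstream smoke acted differently in obese and lean hearts, and 21 genes passed it (0.226%), 14 with a more positive effect (0.151%) and 7 with a more negative effect (0.0753%) in obese mice. Of these, 9 were called only in obese mice, 11 only in regular weight mice and 1 in both. Without RW-MS 7, 18 genes passed, all among the 21, and without RW-MS 2, 6 and 8, 23 passed, 17 of them among the 21. The first 9 included Cyp1a1, Cth, Ahr, Dact1, Hspa1b, Hspa1a and Gadd45g. For these 7 the obese and lean hearts in air differed as well, with limma adjusted p between 9.96e-11 for Cyp1a1 and 0.0253 for Gadd45g.

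Cyp1a1 averaged 5.85 ± 0.27 in RW-MS and 5.67 ± 0.21 in RW-SC hearts (SD, n = 8 each), a difference of 0.18 (adjusted p = 0.415), so its effect was 1.63 ± 0.17 larger in obese mice (SE; limma, adjusted p = 6.5e-08). The DIO-MS mean of 6.20 lay above both regular weight means, and the DIO-SC mean of 4.38 lay below both. Cth also had its lowest mean in DIO-SC hearts, at 4.53, against 5.31 in DIO-MS, 5.31 in RW-MS and 5.39 in RW-SC hearts. Its effects differed by 0.86 ± 0.15 (adjusted p = 0.0027). Ahr averaged 7.16 in DIO-MS and 6.74 in DIO-SC, against 6.93 in RW-MS and 7.06 in RW-SC hearts (difference of effects 0.56, adjusted p = 0.0256), but this did not pass in 9 of 40 other settings, DIO-SC 2 left out among them, nor without RW-MS 2, 6 and 8 (adjusted p = 0.0911). The second, dimmer Ahr probe set gave a difference of effects of 0.08 and did not pass (limma over all probe sets, adjusted p = 0.858). Dact1 differed in effect by 0.51 (adjusted p = 0.0106).

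For the chaperones the air hearts of the obese mice were the high ones. Hspa1b averaged 7.98 in DIO-MS and 9.54 in DIO-SC hearts, against 7.43 in RW-MS and 7.28 in RW-SC hearts, and the effects differed by -1.71 ± 0.36 (adjusted p = 0.0144; 0.0788 when only the compared groups were fitted). Hspa1a gave -1.39 (adjusted p = 0.0405), which did not pass in 22 of 39 other settings. Gadd45g fell in obese mice and differed by 0.27 in lean ones (adjusted p = 0.0547), a difference of effects of -0.64 (adjusted p = 0.0106). The diet effect in air shares the DIO-SC arrays with the smoke effect, so the 2 cannot be read as separate evidence. The DIO-SC minus RW-SC differences were -1.29 for Cyp1a1, -0.86 for Cth, -0.32 for Ahr, 2.26 for Hspa1b and 1.82 for Hspa1a.

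Nr1d1, Cebpb, Ddit4 and Tfrc were among the 11 genes called only in regular weight mice. The clock repressor Nr1d1 averaged 6.98 in DIO-MS and 7.23 in DIO-SC hearts (-0.25, adjusted p = 0.074), and 6.37 in RW-MS and 7.27 in RW-SC hearts (-0.90), and the effects differed by 0.65 (adjusted p = 0.0027). Cebpb, an acute-phase and metabolic transcription factor, differed by -0.18 (adjusted p = 0.155) in obese and rose by 0.43 in lean mice, a difference of -0.61 (adjusted p = 0.000831). A second, dimmer Cebpb probe set gave -0.42 and did not pass (limma over all probe sets, adjusted p = 0.123). Ddit4, an mTOR inhibitor induced by stress, differed by -0.57 (adjusted p = 0.0647) in obese and rose by 0.56 in lean mice, a difference of -1.13 (adjusted p = 0.0313) that did not pass in 17 of 40 other settings. Tfrc, the transferrin receptor, differed by -0.38 (adjusted p = 0.311) in obese and fell by 1.76 in lean mice, a difference of 1.38 (adjusted p = 0.00924). That rests on its brightest probe set, since the others gave differences of -0.06 and 0.16 and one of them fell by 0.59 in obese mice.

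**Figure D5:**
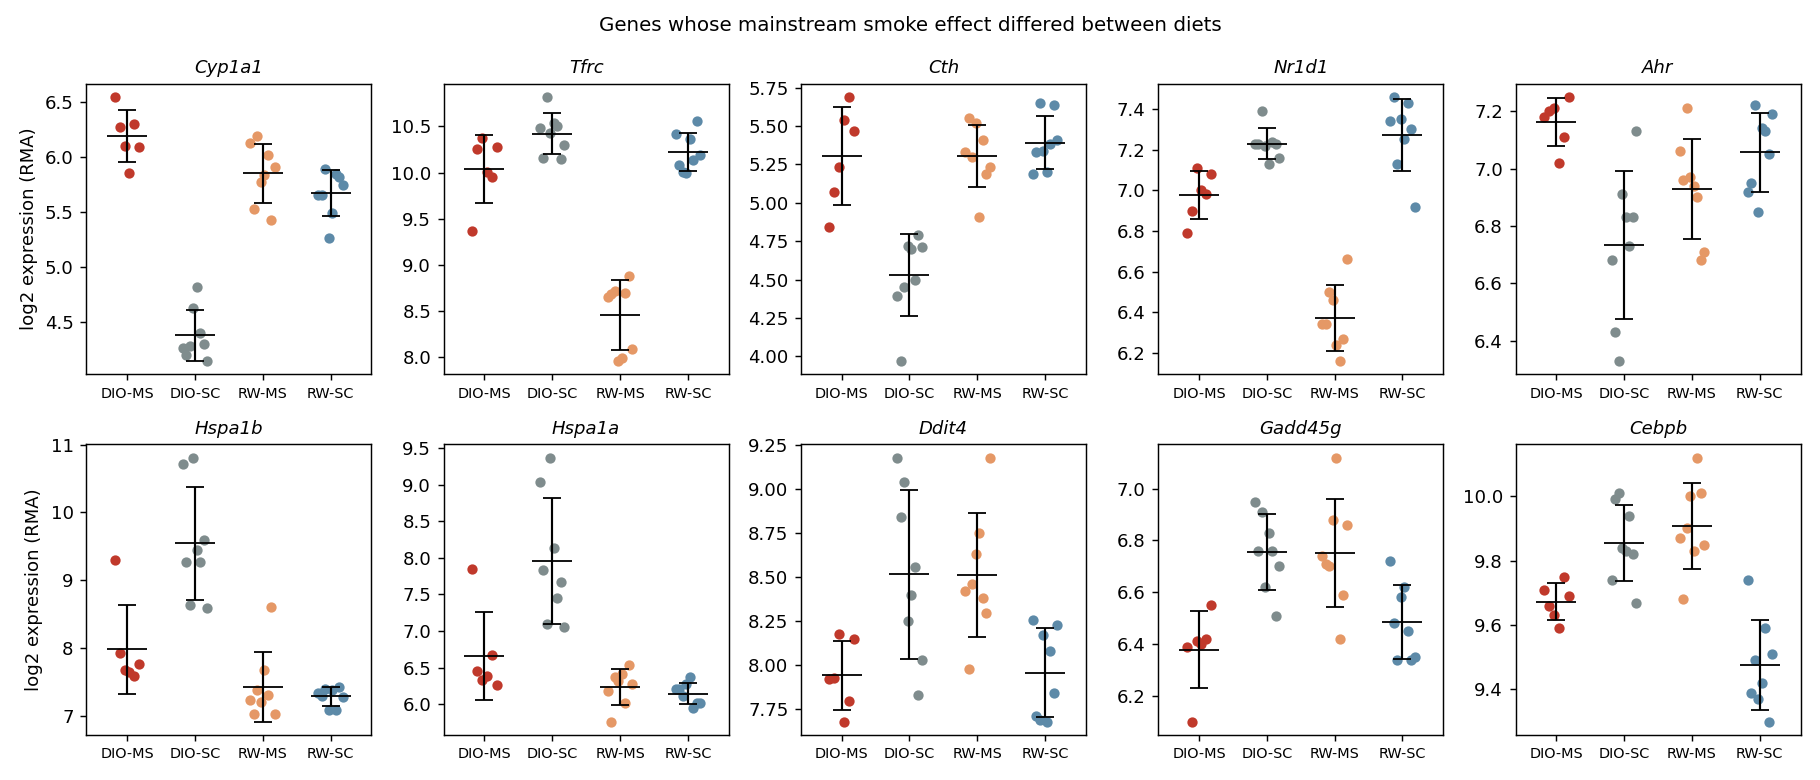
Log2 expression (RMA) of 10 genes whose mainstream smoke effect differed between diets, in each DIO-MS, DIO-SC, RW-MS and RW-SC heart, with mean and SD; vertical scales differ between panels and do not start at 0. For Cyp1a1 and Cth every DIO-SC heart lies below every heart of the other groups, for Hspa1b and Hspa1a the DIO-SC mean is the highest with overlap, and for Tfrc and Nr1d1 every RW-MS heart lies below the rest.

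Within obese mice the 2 smokes were compared directly, and DIO-MS differed from DIO-SS in 237 genes (2.55%), 89 higher (0.958%) and 148 lower (1.59%). That count hung on single arrays, with 27 genes without DIO-MS 2 and 827 without DIO-MS 6. Of the 423 genes called against air, 12 also differed between the smokes. Cyp1a1 averaged 6.20 ± 0.23 in DIO-MS and 5.13 ± 0.31 in DIO-SS hearts (SD, n = 6 and 8), a difference of 1.07 (limma, adjusted p = 1.55e-06). DIO-MS minus DIO-SS was -0.32 for Cdkn1a (adjusted p = 0.0345), -0.33 for Gadd45g (0.0477), -0.21 for Glul (0.0361) and -0.29 for Abcb1a (0.0345). Dbp, a clock output factor, was 0.53 higher (0.000726) and Nr1d1 0.42 higher (0.00643), while the glucocorticoid-induced repressor Zbtb16 was 0.94 higher (0.001). The matrix metalloproteinase Mmp3 differed by -0.62 (0.0277).

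Both smokes were set against the same DIO-SC arrays, and their values are therefore given side by side only. Hspa1b differed by -1.57 after mainstream and -1.77 after sidestream smoke, and Hspa1a by -1.30 after mainstream and -1.32 after sidestream smoke. Ptgds differed by -0.86 after mainstream and -0.82 after sidestream smoke, and Srsf3 by -0.56 after mainstream and -0.58 after sidestream smoke. Cth differed by 0.78 after mainstream and 0.76 after sidestream smoke, and Ddit4l by 0.72 after mainstream and 1.08 after sidestream smoke. The direct difference between the smokes did not pass for any of these 6 genes, with 0.21 for Hspa1b (adjusted p = 0.67) and -0.36 for Ddit4l (adjusted p = 0.18).

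Of the 423 calls, 110 held in every planned setting of the processing that tested the gene (85 higher, 25 lower), which was 23 settings, or 22 for genes that the stricter filter left out. They included Cyp1a1, Cth, Ddit4l, Bdnf, Pde7a, Ahr and Fdft1 among the rises, and Hspa1b, Hsph1, Dnaja1, Ptgds, Stbd1, Srsf3, Rbp7, Tubb2a, Dct, Cdkn1a, Klhdc8a, Thbs4, Klf4 and Jund among the falls. In all 172 calls held whenever any single DIO-MS or DIO-SC array was left out.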

How the data were processed

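The deposited table holds 1 log2 value per probe set and array, made by the authors with RMA (per the submitters' processing notes, version not given in the sources used here). RMA summarises probes on a log2 scale after quantile normalization. Differences of dim genes, near the bottom of the scale, may be understated. RNA (3 µg per array) was labelled with biotin for a 1-colour Affymetrix array, per the labels' protocols. Of 22690 probe sets, 64 were controls, 20380 named 1 gene, 691 several and 1555 none in the platform annotation. Only those with 1 gene were named, and each gene was represented by its brightest probe set on average (12393 genes, 4956 with several probe sets). The lowest 25% of genes by mean, those below 4.90, were left out, which left 9295. All 45 arrays were fitted as 6 group means with limma 3.58.1 (lmFit, eBayes; two-sided, Benjamini-Hochberg over all genes within a comparison, threshold 0.05; R 4.3.3). The number of arrays limits the precision.

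On simulated data with 200 changed genes, 72.5% of changes of 1.2-fold and 98.0% of changes of 1.5-fold were recovered for DIO-MS against DIO-SC, and 47% and 95% for the difference between diets. The simulated noise was normal and independent between genes, with 1 spread per gene for all groups and no arrays that stood apart. The real arrays differ in these respects, so the shares hold for that setting only and not for these hearts. The members and the 52 gene lists (38 pathways, 14 sets of cell type markers) were chosen with earlier results of these data known. Genes were named by rule: the 15 largest rises and falls past the threshold, up to 5 called genes of each list, the largest differences between diets and between smokes, and a fixed panel. Alternatives were no filter, a stricter filter, averaged probe sets, quantile normalization, trended and robust variances, and array weights. Others were only the compared groups, replicate numbers as a block, and leaving out each array of the groups in a comparison. The RW comparison without RW-MS 7, and without RW-MS 2, 6 and 8, was added after seeing the data. No batch or scan date was given in the sources used here.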

Additional observations from a re-analysis of the deposited data

Results flagged for a closer look

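Of 164 sets of values (82 genes in each group), 15 had 1 array far from the rest of its group. Chance alone gives about 1 in 20 where sets are independent and normal. These genes were picked by their calls and some move together, so the count cannot be judged against that rate. DIO-MS 1 was the highest of its group for Hspa1b (9.30), Hspa1a (7.85), Hsph1 (9.26) and Tubb2a (8.07), and the lowest for Dact1 (7.05). DIO-MS 2 was the lowest for Ahsa1 (9.47), Gadd45g (6.10) and Rassf9 (4.96). DIO-MS 5 was the highest for Atg12 (7.93) and Pdha1 (12.77), and DIO-MS 3 for Clmp (5.62). Among the air hearts, DIO-SC 5 was the highest for Fhl1 (11.24), DIO-SC 3 the highest for Nr1d1 (7.39), DIO-SC 8 the lowest for Rbp7 (8.25) and DIO-SC 1 the lowest for Zbtb16 (7.15).

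The effect of mainstream smoke differed between the diets for 21 genes in limma's test of the difference. The DIO effect minus the RW effect was 1.63 for Cyp1a1, 1.38 for Tfrc, 0.86 for Cth, 0.65 for Nr1d1, 0.56 for Ahr, 0.51 for Dact1, 0.46 for Prkd1, 0.44 for Slc41a3, 0.34 for Clock and for Asxl1, 0.32 for Ibtk, 0.25 for Phf20 and 0.22 for Gid8 and for Arfgef1. It was -1.71 for Hspa1b, -1.39 for Hspa1a, -1.13 for Ddit4, -0.64 for Gadd45g, -0.61 for Cebpb, -0.36 for Pcf11 and -0.34 for Hectd3.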

How the results depend on the processing

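Cyp1a1, Cth, Hspa1b, Ptgds and Srsf3 kept their direction and their call in every planned setting that tested them (22 for Cyp1a1 and Cth, 23 for the others). Array weights gave 714 genes in DIO-MS against DIO-SC (491 higher and 223 lower, 68.8% higher, against 80.4% without weights), 48 for the difference between diets, 1964 between the smokes and 85 called list genes, against 53. A further quantile normalization gave 358 genes, 67.0% of them higher (240 and 118), and 106 between the smokes. Fitting only the compared groups gave 222 higher genes and 43 of the 69 named genes, and no filter gave 52 lower genes. Flt1 turned to -0.06 (adjusted p = 0.593) when its probe sets were averaged. Leaving out 1 array of the groups in a comparison gave 221 to 443 genes, 166 to 350 higher and 46 to 93 lower. It gave 32 to 54 list genes, 46 to 63 named genes, 14 to 35 for the difference between diets and 27 to 827 between the smokes. The lower count fell under 56 without DIO-SC 4 (54), DIO-SC 5 (46), DIO-MS 2 (48), DIO-MS 3 (53) or DIO-MS 5 (55), and the higher count to 166 without DIO-MS 5, 179 without DIO-MS 6 and 203 without DIO-SC 5. The list genes fell to 33 without DIO-SC 5, 34 without DIO-MS 2, 35 without DIO-MS 3, 32 without DIO-MS 5 and 33 without DIO-MS 6. The difference between diets gave 35 genes without DIO-MS 1, 32 without DIO-SC 8 and 33 without RW-MS 1. Between the smokes the count was 43, 27, 83, 37, 626 and 827 without DIO-MS 1 to 6 in turn, and 80, 76, 132 and 125 without DIO-SS 4, 5, 7 and 8. The cause of these shifts was not tested. With the replicate block (title number) 336 genes were called (262 higher, 74 lower), and with the replicate block by animal number 348, and 90 between the smokes. Same-numbered DIO-MS and DIO-SC arrays deviated together in 1 of 6 pairs by title number (r = -0.29 to 0.12) and in 3 of 6 by animal number (r = -0.29 to 0.28), so neither numbering was taken as pairs. An alternative chosen after seeing the data, DIO-SC 2 left out with the fat marker mean as a covariate, gave 421 genes (333 higher, 88 lower).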

Other observations

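Probe sets that name several genes or none were tested apart. Of 1339 such probe sets 46 differed between DIO-MS and DIO-SC hearts, 27 of them higher, against 4.55% of the 9295 genes called.

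Other genes also passed the test of the difference between diets. The polyadenylation factor Pcf11 averaged 6.62 in DIO-MS and 6.71 in DIO-SC hearts, against 6.76 in RW-MS and 6.50 in RW-SC hearts, a difference of effects of -0.36 (limma, adjusted p = 0.00508). The chromatin regulator Asxl1 averaged 7.75 in DIO-MS and 7.55 in DIO-SC hearts, against 7.61 in RW-MS and 7.75 in RW-SC hearts, a difference of 0.34 (adjusted p = 0.019, and 0.085 without RW-MS 2, 6 and 8, whose atrial markers were low). The magnesium transporter gene Slc41a3 was the 1 gene called in both diets, lower by 0.21 in DIO-MS and by 0.65 in RW-MS, a difference of 0.44 (adjusted p = 0.00702). The core clock gene Clock averaged 7.28 in DIO-MS and 7.31 in DIO-SC hearts, against 7.02 in RW-MS and 7.38 in RW-SC hearts, a difference of 0.34 (adjusted p = 0.0186, and 0.0911 without those 3 arrays). That rests on its brightest probe set, with a mean of 7.23 over all arrays. A second Clock probe set, with a mean of 6.92, gave 0.14 and did not pass (limma over all probe sets, adjusted p = 0.609).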
